A study of Mus musculus with 6 samples.

Results

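The miRNAs described are the products of the miR-219a and miR-338 hairpins, mmu-miR-219a-5p, mmu-miR-219a-2-3p, mmu-miR-338-3p and mmu-miR-338-5p. They were chosen by name: every read sequence whose miRNA label was one of these 4 was a member, and 612 of the 143934 read sequences and 4 of the 1101 miRNA labels qualified. The 612 sequences divided into 176 for mmu-miR-219a-5p, 104 for mmu-miR-219a-2-3p, 226 for mmu-miR-338-3p and 106 for mmu-miR-338-5p, and none carried a second miRNA label. Small RNAs bound to Argonaute (Ago) proteins were measured in the brain of male C57BL/6J (BL6) animals. The young group (2M) held 3 libraries from animals aged 2 months and the old group (18M) held 3 from animals aged 18 months, and neither is described with a transgene or a treatment. Cortex and hippocampus were combined, Ago1-4 were pulled down with a peptide of GW182, a protein that binds Ago, and the RNA that came with them was sequenced (Ago-RP-Seq). The values therefore describe small RNAs in the RNA-induced silencing complex (RISC) and not all small RNAs of the tissue.

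Oligodendrocytes wrap axons in myelin. miR-219 and miR-338 are known as miRNAs that accumulate when oligodendrocyte precursors mature, and they repress transcription factors and receptors that keep the precursors dividing, among them Sox6, Hes5 and Pdgfra. A hairpin is cut by Drosha and Dicer into a 5p and a 3p arm, of which Ago keeps one as its guide. The guide finds its targets mainly through its seed, the bases from position 2 onwards, so the 5′ end of a read sets its targets, whereas the 3′ end can be trimmed or extended without a change of seed.

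The mature sequences are given first, since the arms, their seeds and their ends are what the results turn on. RefSeq (GRCm38.p6) lists 3 of the 4, and capitals mark bases 2 to 8.
mmu-miR-219a-5p (RefSeq): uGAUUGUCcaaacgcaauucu
mmu-miR-338-3p (RefSeq): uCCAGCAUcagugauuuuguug
mmu-miR-338-5p (RefSeq): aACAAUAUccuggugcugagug
The most abundant read of each label, called its main read, is written with T as in the deposited table, again with bases 2 to 8 in capitals.
mmu-miR-219a-5p (main read): tGATTGTCcaaacgcaattctt
mmu-miR-219a-2-3p (main read): aGAATTGTggctggacatctgt
mmu-miR-338-3p (main read): tCCAGCATcagtgattttgttg
mmu-miR-338-5p (main read): aACAATATcctggtgctgagt
The main read of mmu-miR-338-3p was the RefSeq form. That of mmu-miR-219a-5p was 22 nt long, against 21 nt in RefSeq, and that of mmu-miR-338-5p was 21 nt long, against 22 nt. The 4 seeds differ from each other, so the members fall into 4 seed groups of 1 member each.

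mmu-miR-219a-2-3p and mmu-miR-219a-5p are the arms of Mir219a-2, and the arms of miR-338 come from Mir338. The hairpins are shown with the main reads in capitals.
Mir219a-2 (RefSeq hairpin): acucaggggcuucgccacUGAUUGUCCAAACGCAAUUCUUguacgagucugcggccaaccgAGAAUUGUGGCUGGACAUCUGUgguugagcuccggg
Mir338 (RefSeq hairpin): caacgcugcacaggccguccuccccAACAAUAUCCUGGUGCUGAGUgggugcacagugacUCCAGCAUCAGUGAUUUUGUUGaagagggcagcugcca
Mir219a-2 lies at chr2:29845631-29845727 on the minus strand (GRCm38). In GENCODE M21 it overlaps no gene of its own strand, it overlaps Mir219b on the opposite strand, and Urm1 ends 629 bp away on the opposite strand. Mir338 lies at chr11:120014765-120014862 on the minus strand, inside Aatk (ENSMUSG00000025375.15) and outside all annotated exons of that gene, which makes it intronic. Aatk encodes a kinase of the nervous system. The 5p arm of miR-219a can also come from Mir219a-1 at chr17:34024983-34025092, minus strand, which lies between Ring1 and H2-Ke6 and overlaps the noncoding gene Gm26940.

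The templates of Mir219a-1 and Mir219a-2 first differ at position 22 of the 5p arm, C in Mir219a-1 and T in Mir219a-2. Position 23 is G in both. Reads long enough to show positions 22 and 23 carried the bases of Mir219a-2 in nearly all cases. The share was lowest in 18M replicate 1, at 98.4% of 10491 reads told apart (Wilson 95% interval 98.2% to 98.7%), and highest in 2M replicate 1, at 99.4% of 17472 reads (99.3% to 99.5%). Shorter reads, the main read among them, were not told apart, since a last T can also be added after cutting. Of the related labels, the other arm of Mir219a-1, mmu-miR-219a-1-3p, had 0.810 to 1.76 RPM (reads scaled to the same library total) in the 6 libraries, and the opposite-strand labels mmu-miR-219b-5p and mmu-miR-219c-5p had 0.0460 to 0.333 RPM and 0.0910 to 0.334 RPM, near the 0.1196 to 0.1556 RPM that a floor of 3 reads gives.

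In the RISC of both ages mmu-miR-338-3p and mmu-miR-219a-5p were the abundant arms, and the 4 members together held 0.737% to 1.48% of a library. mmu-miR-338-3p averaged 5122 RPM over the 6 libraries (rank 47 of all labels), mmu-miR-219a-5p 3642 RPM (rank 54), mmu-miR-219a-2-3p 782 RPM (rank 117) and mmu-miR-338-5p 646 RPM (rank 132). These are whole reads of nearly equal length, so the levels need no division by length. How well each sequence was captured was not tested. mmu-miR-338-3p was above mmu-miR-219a-5p in 5 of 6 libraries and the ranges overlapped. mmu-miR-219a-5p was above mmu-miR-219a-2-3p in 6 of 6 libraries with no overlap. mmu-miR-219a-2-3p was above mmu-miR-338-5p in 6 of 6 libraries, although the ranges, 702 to 963 RPM and 494 to 844 RPM, overlapped.

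mmu-miR-219a-5p, the guide arm of Mir219a-2, had 2209, 6882 and 2455 RPM in 2M replicates 1, 2 and 3 and 3535, 1720 and 5051 RPM in 18M replicates 1, 2 and 3. 2M replicate 2 was the highest library and 18M replicate 2 the lowest, and the ages overlapped throughout. The highest library was 4.0 times the lowest, against a median of 1.56 times over the 474 labels with a mean of at least 10 RPM, and the SD within an age on the log2 scale was 0.85 against a median of 0.20 (rank 12 of 474).

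mmu-miR-219a-2-3p, the other arm of the same hairpin, had 818, 963 and 719 RPM at 2M and 702, 707 and 783 RPM at 18M. The 18M libraries lay within or just below the range of the 2M libraries. The highest library was 1.37 times the lowest, so mmu-miR-219a-5p and mmu-miR-219a-2-3p differed widely in spread between libraries.

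mmu-miR-338-3p, the guide arm of Mir338, had 5412, 6088 and 3485 RPM at 2M and 5242, 5129 and 5379 RPM at 18M. 2M replicate 3 stood low, and the 18M libraries lay within the range of the 2M libraries, the means being 4995 ± 1351 RPM for the young and 5250 ± 125 RPM for the old group (SD, n = 3).

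mmu-miR-338-5p had 668, 844 and 706 RPM at 2M and 610, 554 and 494 RPM at 18M. Every 18M library lay below every 2M library, with means of 739 ± 92.4 and 552 ± 58.0 RPM (SD, n = 3). A position below all 2M libraries was common in these data: of the 474 labels tested, 91 (19.2%) lay lower at 18M without overlap.

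**Figure D1:**
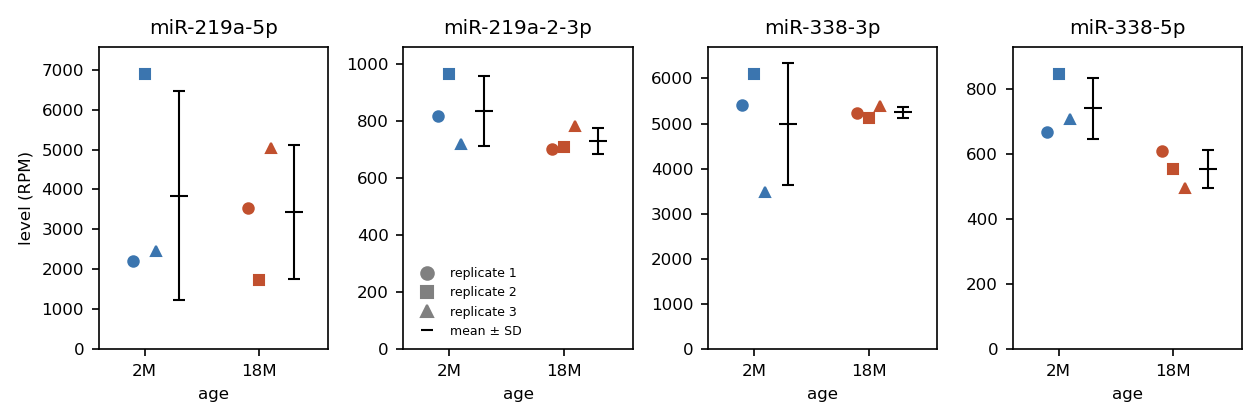
Level of each member in RPM (vertical axes, each from 0) in the 2M (blue) and 18M (red) libraries, with 1 point per library and the mean ± SD (n = 3) in black. The 18M libraries of miR-338-5p, 494 to 610 RPM, all lie below the 2M libraries, whereas the ages overlap for the other 3 members.

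To ask which members differed with age, all labels with a mean of at least 10 RPM were fitted with limma on log2(RPM + 1), and all 4 members passed this filter. None of the 4 members was called at an adjusted p under 0.05, where 23 of 474 labels (4.85%) were called, 2 of them higher at 18M. The log2 fold change of 18M over 2M was -0.42 for mmu-miR-338-5p (SE 0.15, limma adjusted p = 0.215, unadjusted p = 0.0268), with an interval from -0.77 to -0.07. At the unadjusted threshold mmu-miR-338-5p was 1 of 85 labels (17.9%). The log2 fold change was -0.18 for mmu-miR-219a-2-3p (SE 0.15, limma adjusted p = 0.544), with an interval from -0.53 to 0.17. For mmu-miR-338-3p it was 0.11 (SE 0.22, limma adjusted p = 0.827), with an interval from -0.41 to 0.63, and it was -0.13 without 2M replicate 3. For mmu-miR-219a-5p it was -0.09 (SE 0.55, limma adjusted p = 0.931). Its interval, from -1.41 to 1.22, leaves room for a change of over 2-fold in either direction, and its sign turned without 2M replicate 2 (0.43) or 18M replicate 2 (0.34). The median log2 fold change was -0.14 over the 4 members and -0.07 over the 474 labels.

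Since these are bulk samples, fewer oligodendrocytes and less of a miRNA per cell cannot be told apart. Markers of the other cell types in the tissue were therefore summed beside the members, and no list had a marker at 0. Of 6 neuronal miRNAs, with mmu-miR-124-3p the defining one, the summed level was 186764 to 214510 RPM at 2M and 165324 to 207025 RPM at 18M, and 0 of 6 were called. For microglia and immune cells the sum was 3776 to 4111 RPM at 2M and 2834 to 3402 RPM at 18M. It was lower at 18M without overlap, as were 19.2% of the 474 labels tested, and 0 of the 5 tested of 6 miRNAs were called. Most of this sum was mmu-miR-150-5p (log2 fold change -0.40). mmu-miR-142a-3p (-0.22) and mmu-miR-142a-5p (-0.38) were also below 0, while mmu-miR-146a-5p (0.19) and mmu-miR-223-3p (0.03) were above 0. For vessel and blood the sum was 13411 to 18583 RPM at 2M and 9940 to 14710 RPM at 18M, and 0 of 6 were called. All 6 had a log2 fold change below 0, with a median of -0.29. The medians were -0.08 for the neuronal and -0.22 for the immune list, and -0.07 over all 474 labels. How many of all labels lay below 0 was not counted. At an unadjusted p under 0.05 (limma) the 3 lists held 1, 1 and 0 miRNAs. The part of these cell types in the members' levels was not tested.

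Of 12 other miRNAs linked to oligodendrocytes, all of which were tested, 0 were called and 2 had an unadjusted p under 0.05 (limma), a share near the 17.9% of all labels. Both were lower at 18M: mmu-miR-19b-3p, a member of the miR-17-92 cluster, with a log2 fold change of -0.57 (SE 0.16, adjusted p = 0.115), and mmu-miR-145a-5p, which is also a smooth muscle miRNA, with -0.42 (SE 0.14, adjusted p = 0.171). The list had a median log2 fold change of -0.23, and 2 of the 12 were above 0. Its summed level was 26325 to 27339 RPM at 2M and 23300 to 28081 RPM at 18M.

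The balance of the arms was compared next. mmu-miR-338-3p made up 89.0%, 87.8% and 83.2% of the 2 arms of Mir338 in the 2M libraries and 89.6%, 90.3% and 91.6% in the 18M libraries. The means were 86.7% ± 3.09 and 90.5% ± 1.02 (SD, n = 3), and the ages did not overlap (exact two-sided permutation test, p = 0.1, the smallest that 3 against 3 libraries can give, and 0.36 adjusted over 18 arm and end measures). Without 2M replicate 3 the difference went from 3.81 to 2.06 points, and with the main read of each arm alone the ages overlapped (exact permutation test, p = 0.2). Of 149 hairpins with both arms tested, 15 (10.1%) had shares that did not overlap. mmu-miR-219a-5p made up 73.0%, 87.7% and 77.3% of mmu-miR-219a-5p plus mmu-miR-219a-2-3p at 2M and 83.4%, 70.9% and 86.6% at 18M, and the ages overlapped (exact permutation test, p = 1). This share counts all reads of mmu-miR-219a-5p, also those not told apart between Mir219a-1 and Mir219a-2. The order of the 6 libraries by this share was the same as their order by the level of mmu-miR-219a-5p.

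The lengths of the reads were then compared. Most member reads matched the hairpin to their last base (97.7% of the level of mmu-miR-219a-5p, 90.3% of mmu-miR-219a-2-3p, 95.5% of mmu-miR-338-3p and 92.8% of mmu-miR-338-5p), so that most length forms, or isomiRs, of a member can be placed by where the 3′ end lies on the template. A base added after cutting that matches the template also counts as a match. Of the 612 member sequences, 32 had a mean of at least 10 RPM and were tested with all reads. They held at least 86.5% of each member's level in every library.

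For mmu-miR-219a-5p, 3 such forms held 91.9% to 95.9% of the level. They are shown because their values differed in direction between the ages.
21 nt: tGATTGTCcaaacgcaattct
22 nt: tGATTGTCcaaacgcaattctt
23 nt: tGATTGTCcaaacgcaattcttg
The 21-nt form, which is the RefSeq sequence, had 223, 369 and 431 RPM at 2M and 738, 485 and 771 RPM at 18M. Every 18M library lay above every 2M library, as it did for 11.5% of the 3281 reads tested. Of tested reads shorter than the main read of their label, over all labels, 144 of 918 (15.7%) were higher and 80 (8.71%) lower without overlap. The mean of the 21-nt form was 1.95 times that at 2M (log2 fold change 0.99, SE 0.30, limma adjusted p = 0.265). The 23-nt form had 776, 1315 and 955 RPM at 2M and 511, 392 and 690 RPM at 18M. Here every 18M library lay below every 2M library, as for 9.45% of the reads tested, and the mean was 0.523 times that at 2M (log2 fold change -0.94, SE 0.28, limma adjusted p = 0.247). The 22-nt main read had 1031, 4917 and 903 RPM at 2M and 2061, 710 and 3187 RPM at 18M. It carried most of the spread of the label, with 2M replicate 2 the highest and 18M replicate 2 the lowest, and its fold change had an SE of 0.77 (log2 fold change 0.01, limma adjusted p = 0.996, and -0.46 to 0.79 with a library left out). The 20-nt form was lower in level and overlapped between the ages, with 34.4, 38.5 and 30.6 RPM at 2M and 41.6, 32.8 and 56.9 RPM at 18M (log2 fold change 0.31, SE 0.22). Reads of a member share their hairpin and their libraries and are not independent.

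**Figure D2:**
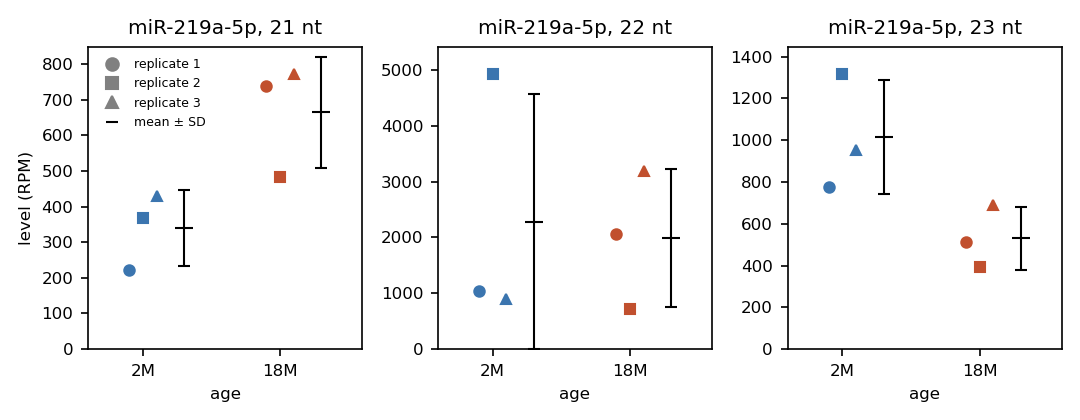
Level in RPM (vertical axes, each from 0) of the 21-, 22- and 23-nt forms of miR-219a-5p in the 2M (blue) and 18M (red) libraries, with 1 point per library and the mean ± SD (n = 3) in black. The 21-nt form is higher and the 23-nt form lower in every 18M library, and the 22-nt form overlaps between the ages, from 710 to 4917 RPM.

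The ratio of the 21-nt to the 23-nt form, which does not involve the main read, was 0.287, 0.281 and 0.451 in the 2M libraries and 1.45, 1.24 and 1.12 in the 18M libraries. The shorter form was the less abundant in every 2M library and the more abundant in every 18M library. This ratio was chosen after the values of both forms were seen and was given no test.

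For mmu-miR-338-3p the short forms were the ones that were higher at 18M, and they are shown with the main read.
19 nt: tCCAGCATcagtgattttg
20 nt: tCCAGCATcagtgattttgt
21 nt: tCCAGCATcagtgattttgtt
22 nt: tCCAGCATcagtgattttgttg
23 nt: tCCAGCATcagtgattttgttga
The 19-nt form had 10.002, 11.24 and 9.102 RPM at 2M and 22.41, 23.11 and 23.3 RPM at 18M. It was higher at 18M (log2 fold change 1.11, SE 0.15, limma adjusted p = 0.0391) and was the 1 member read that was called, where 12 of 3281 reads (0.366%) were called. Its call was lost in each of the 6 fits with a library left out (limma adjusted p from 0.0874 to 0.279, log2 fold change from 1.04 to 1.18). In each of these fits 0 of the 3254 to 3293 reads tested were called, so the loss was not particular to this read. The 20-nt form had 173, 161 and 152 RPM at 2M and 312, 265 and 296 RPM at 18M. It was 1.80 times as high and without overlap, as 11.5% of the reads tested were higher (log2 fold change 0.84, SE 0.15, limma adjusted p = 0.0939). The 21-nt form, 878 to 1472 RPM at 2M and 1200 to 1430 RPM at 18M, had a log2 fold change of 0.21 (SE 0.22). The 22-nt main read, 1899 to 3709 RPM at 2M and 2938 to 3125 RPM at 18M, had 0.06 (SE 0.26). The 23-nt form, 281 to 367 RPM at 2M and 210 to 307 RPM at 18M, had -0.35 (SE 0.20). From 19 to 23 nt the log2 fold change was thus lower with each base, though the 19-nt form alone was called and the ages of the 21-, 22- and 23-nt forms overlapped.

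For the less abundant arms the differences were as follows. The 20-nt form of mmu-miR-219a-2-3p (aGAATTGTggctggacatct) had 59.1, 53.1 and 56.4 RPM at 2M and 66.9, 70.6 and 78.3 RPM at 18M, higher without overlap (log2 fold change 0.35, SE 0.14, limma adjusted p = 0.366). Its main read had 604, 716 and 530 RPM at 2M and 484, 500 and 546 RPM at 18M (log2 fold change -0.26, SE 0.17). For mmu-miR-338-5p the main read had 447, 590 and 484 RPM at 2M and 414, 392 and 306 RPM at 18M, lower without overlap (log2 fold change -0.45, SE 0.19, limma adjusted p = 0.378). Its 23-nt form (aACAATATcctggtgctgagtgg) had 40.0, 44.5 and 41.6 RPM at 2M and 30.2, 25.8 and 30.8 RPM at 18M, also lower without overlap (log2 fold change -0.53, SE 0.14, limma adjusted p = 0.212). The short 20-nt form of this arm overlapped between the ages, at 16.3 to 21.96 RPM and 13.3 to 19.3 RPM. Of the 3281 reads tested, 11.5% were higher and 9.45% lower at 18M without overlap.

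**Figure D3:**
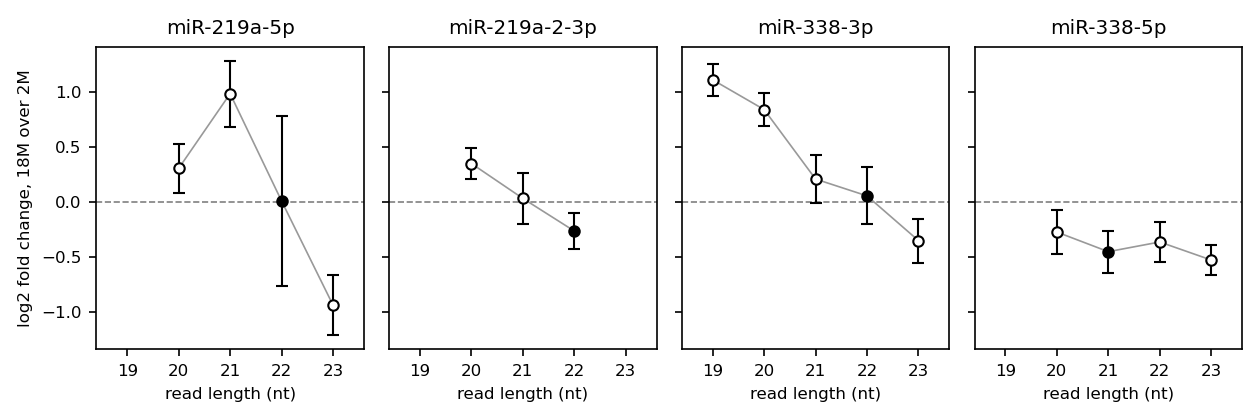
log2 fold change of 18M over 2M from limma (vertical axis, bars are the SE) against read length in nt for reads that match the hairpin, start at the main 5′ end and have a mean of at least 10 RPM. The filled point is the main read of each member. The values go down from 1.11 at 19 nt to -0.35 at 23 nt for miR-338-3p, and from 0.35 at 20 nt to -0.26 at 22 nt for miR-219a-2-3p. Those of miR-219a-5p are 0.31 at 20 nt, 0.99 at 21 nt, 0.01 at 22 nt and -0.94 at 23 nt, and those of miR-338-5p all lie below 0.

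The share of a label's reads that were shorter than its main read was then taken per library. For mmu-miR-219a-5p this share was 13.2%, 6.91% and 20.9% at 2M and 24.2%, 32.3% and 20.5% at 18M, a difference of 12.0 points in the mean, the fourth largest of 474 labels, whose median was 0.267 points. The ages overlapped between 2M replicate 3 and 18M replicate 3 (exact permutation test, p = 0.2). Counting reads of 20 nt or less, which leaves out the 21-nt form, the difference was 0.696 points. For mmu-miR-219a-2-3p it was 15.6%, 14.8% and 16.5% at 2M and 21.3%, 19.6% and 20.5% at 18M, without overlap, with means of 15.6% ± 0.865 and 20.4% ± 0.887 (SD, n = 3, exact permutation test, p = 0.1, adjusted 0.36). For mmu-miR-338-3p it was 24.6%, 29.0% and 32.5% against 31.8%, 31.5% and 35.3% (exact permutation test, p = 0.3), and the difference of 4.15 points was 2.10 points without 2M replicate 1. For mmu-miR-338-5p it was 6.15%, 5.75% and 5.51% against 7.08%, 6.16% and 7.43%, without overlap by a margin of 6.15% against 6.16% (exact permutation test, p = 0.1). With sequences of at least 1 RPM alone its ages overlapped (exact permutation test, p = 0.2). In 2 of the 4 members the share was thus higher at 18M without overlap, as it was in 46 of 474 labels (9.70%).

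The share of longer reads went the other way. For mmu-miR-219a-5p it was 38.5%, 20.8% and 41.0% at 2M and 16.3%, 25.0% and 15.5% at 18M, a difference of -14.5 points (exact permutation test, p = 0.2), or -0.311 points for reads of 24 nt or more, which leaves out the 23-nt form. Only 2 of the 474 labels had a lower difference, and the median was -0.113 points. 2M replicate 2, the library in which the 22-nt read was highest, overlapped with the 18M libraries. For mmu-miR-219a-2-3p it was 6.41%, 6.73% and 6.19% against 5.01%, 5.46% and 5.26%, without overlap (exact permutation test, p = 0.1, adjusted 0.36), which 52 of 474 labels (11.0%) also showed. For its reads of 24 nt or more the ages overlapped (exact permutation test, p = 0.2). The shares of mmu-miR-338-3p, 6.91% to 9.69% and 5.17% to 7.42%, and of mmu-miR-338-5p, 18.3% to 19.6% and 16.1% to 21.4%, overlapped (exact permutation tests, p = 0.2 and 0.8).

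**Figure D4:**
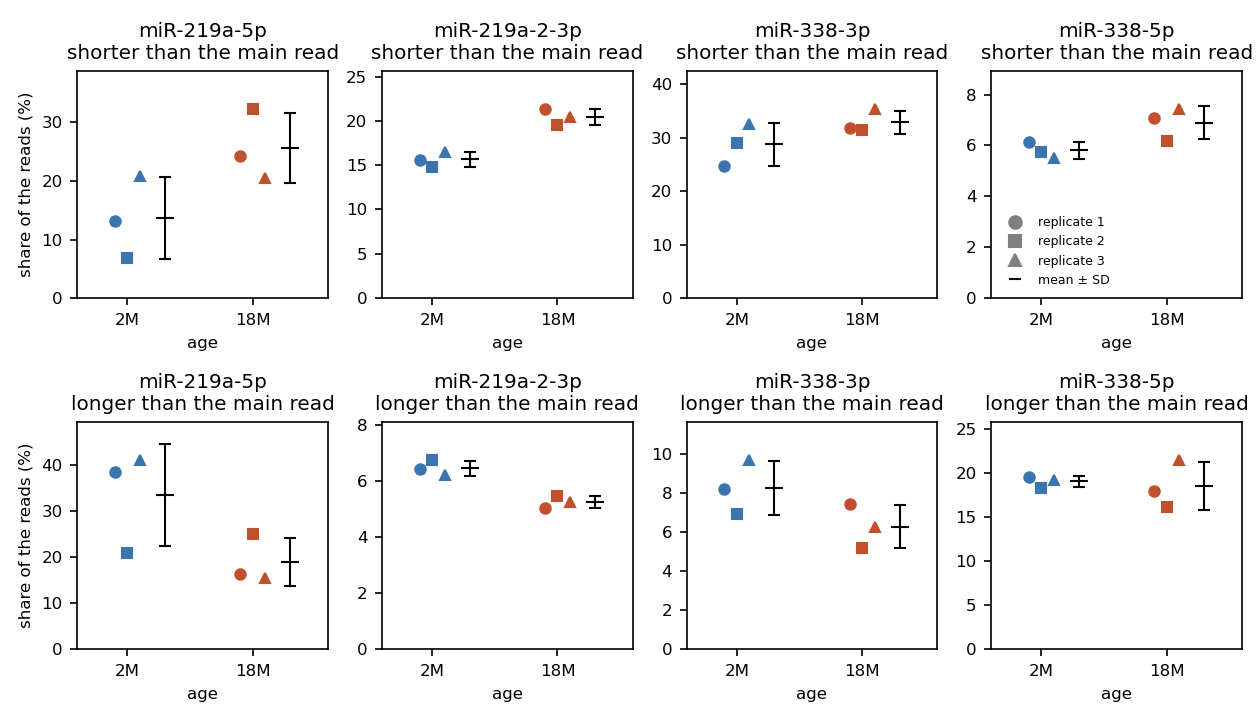
Share in percent (vertical axes, each from 0) of the reads of each member that are shorter (upper row) or longer (lower row) than its main read, in the 2M (blue) and 18M (red) libraries, with 1 point per library and the mean ± SD (n = 3) in black. Shorter reads of miR-219a-2-3p lie between 14.8% and 16.5% at 2M and between 19.6% and 21.3% at 18M.

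Libraries can differ in how well a 3′ end is captured. The 21-, 22- and 23-nt forms of mmu-miR-219a-5p end in CT, TT and TG, and among the reads of all other sequences these ends made up 7.29% to 7.96%, 17.9% to 21.1% and 3.94% to 5.34% of a library. With the libraries scaled by the last 2 bases of the reads, a setting added after seeing the data, the log2 fold changes of the 3 forms were 0.96, -0.09 and -0.78, and the 19-nt and 20-nt forms of mmu-miR-338-3p, which end in TG and GT, had 1.26 (limma adjusted p = 0.0433) and 0.84 (limma adjusted p = 0.0953). The part of capture in the remaining differences was not tested.

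Ends that depart from the template were few. Reads whose last 1 to 4 bases do not match the hairpin made up 1.42% of the level of mmu-miR-219a-5p, 8.87% of mmu-miR-219a-2-3p, 3.53% of mmu-miR-338-3p and 6.59% of mmu-miR-338-5p. An added base that matches the template is not counted among these. The last T of the main read of mmu-miR-219a-5p matches Mir219a-2 and was counted as a match, though it may have been added. A single A or a single T was the commonest departure in each member, and in mmu-miR-219a-2-3p an A made up 50.3% and a T 32.4% of it. The mean share of departing reads differed by -0.20 to 0.42 points between the ages, and the ages overlapped in all 4 members (exact permutation tests, p from 0.4 to 0.6).

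The 5′ end, and with it the seed, varied little in 3 of the members and more in mmu-miR-338-5p. Reads that start at another base made up 1.31% to 4.24% of mmu-miR-219a-5p, 3.92% to 4.53% of mmu-miR-219a-2-3p and 2.07% to 3.39% of mmu-miR-338-3p. Only in mmu-miR-219a-2-3p did the ages not overlap, with means of 4.15% ± 0.208 and 4.40% ± 0.113 (SD, n = 3, exact permutation test, p = 0.1, adjusted 0.36), and with sequences of at least 1 RPM alone they overlapped there too (exact permutation test, p = 0.4). How many of all labels did not overlap in this measure was not counted. In mmu-miR-338-5p the share was 14.4% to 20.4%, most of it reads that begin 2 bases upstream (10.5% to 15.7%). These carry another seed and are shown beside the main read.
main read: aACAATATcctggtgctgagt
2 bases upstream, 21 nt: cCAACAATatcctggtgctga
2 bases upstream, 23 nt: cCAACAATatcctggtgctgagt
The upstream 21-nt read had 32.4, 31.2 and 30.8 RPM at 2M and 26.8, 22.8 and 28.3 RPM at 18M. It was lower without overlap, as were 9.45% of the reads tested (log2 fold change -0.27, SE 0.14, limma adjusted p = 0.428). The share of shifted reads was 17.1%, 14.8% and 15.1% at 2M and 16.2%, 14.4% and 20.4% at 18M, and the ages overlapped (exact permutation test, p = 0.7).

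One shifted read of mmu-miR-219a-5p stood out in a single library. The 21-nt read gATTGTCCaaacgcaattctt, which begins 1 base downstream, had 12.9, 35.0 and 19.4 RPM at 2M and 25.6, 9.51 and 137 RPM at 18M. 18M replicate 3 was far above the others (log2 fold change 0.64, SE 0.88, limma adjusted p = 0.763), and without it the log2 fold change was -0.37.

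The deposited table gives for each 6mer seed (positions 2 to 7) the percent of mouse cells, as a mean over 3 cell lines, that survive an siRNA with that seed. This viability was 88.5% for GAUUGU of mmu-miR-219a-5p, 65.1% for GAAUUG of mmu-miR-219a-2-3p, 71.4% for CCAGCA of mmu-miR-338-3p and 78.7% for ACAAUA of mmu-miR-338-5p. Each member was nearly the only source of its seed in the RISC: it supplied 98.1%, 98.3%, 98.3% and 97.3% of all reads with these seeds, and no other label with such a seed reached a mean of 10 RPM. Shifted reads carried other viabilities, 58.3% for AUUGUC of mmu-miR-219a-5p, 81.2% for AGAAUU and 43.8% for AAUUGU of mmu-miR-219a-2-3p, 62.7% for CAGCAU of mmu-miR-338-3p and 75.7% for CAACAA of mmu-miR-338-5p. CAGCAU was shared with mmu-miR-103-3p, whose reads with it averaged 63.6 RPM against 112 RPM from mmu-miR-338-3p. The 19- to 23-nt forms shown above keep the main 5′ end and therefore the seed, whereas the shares of shorter and longer reads also count shifted reads with other seeds.

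For each member the labels with the most similar profile over the 6 libraries were found, as the root mean square difference of log2(RPM + 1) after each profile was centred on its mean. For mmu-miR-219a-5p these were mmu-miR-193a-3p (0.25), mmu-miR-879-5p (0.32) and mmu-miR-497a-3p (0.35), against a median of 0.72 over all labels. mmu-miR-193a-3p had 102, 310 and 114 RPM at 2M and 259, 100 and 267 RPM at 18M, high and low in the same libraries as mmu-miR-219a-5p. For mmu-miR-219a-2-3p they were mmu-miR-98-3p (0.05), mmu-miR-98-5p (0.05) and mmu-miR-22-5p (0.06), with a median of 0.26. For mmu-miR-338-3p they were mmu-miR-384-5p (0.12), mmu-miR-370-3p (0.13) and mmu-let-7g-5p (0.15), with a median of 0.35. For mmu-miR-338-5p they were mmu-miR-379-5p (0.08), mmu-miR-411-5p (0.10) and mmu-miR-496a-3p (0.11), with a median of 0.31. The arms of a hairpin were less alike than these labels, which were picked as the nearest of all. The difference was 0.60 between mmu-miR-219a-5p and mmu-miR-219a-2-3p, below the median of the first (0.72) and above that of the second (0.26). It was 0.36 between mmu-miR-338-3p and mmu-miR-338-5p, beside medians of 0.35 and 0.31. These are descriptions over 6 libraries that share their scaling.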

How the data were processed

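Ago-bound small RNA of 6 mouse brain samples (cortex and hippocampus, 3 per age) was size-selected on a gel and sequenced by the authors on an Illumina HiSeq instrument. Reads were trimmed (Trim Galore, per the submitters' processing notes, version not given in the sources used here), identical reads were collapsed and the more frequent ones were assigned to mouse small RNAs with SPOROS. The deposited values are RPM, scaled by the authors to an equal total per library, and the table had 0 per-sample columns outside the 6 libraries. The seed viability and the total of a row are deposited as scores, and the total was not used.

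At least 99.9986% of the values in each library were whole multiples of 1 step (within 0.02 of a step), which gave 19272046 to 25080484 reads per library. The Wilson intervals and the floors cover counting error only. Intervals of log2 fold changes come from the limma fit and reflect the spread between libraries. Groups came from the titles, which number the libraries without naming animals, so p-values measure the spread between these libraries, which may be technical.

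A read counted for every label in its miRNA column. Labels and reads with a mean of at least 10 RPM were fitted with limma 3.58.1 (lmFit, eBayes with trend, no covariate, R 4.3.3) on log2(RPM + 1), a scale that understates changes of low features, with Benjamini-Hochberg adjustment over all tested and a threshold of 0.05. Shares were compared with exact two-sided permutation tests. The scripts were tested on simulated data. Named items followed a rule: the members, up to 8 reads of each by mean RPM, the 3 labels of most similar profile, related labels, labels that share a seed and called miRNAs of a list of 12 oligodendrocyte-linked miRNAs. The 19-nt read of mmu-miR-338-3p fell outside it and was named after its values were seen. mmu-miR-19b-3p and mmu-miR-145a-5p were also named after their values were seen. Members, lists and tests were chosen with earlier results of these data known. Hairpins and mature sequences came from RefSeq (GRCm38.p6), which matched 3 of the 4 members, and neighbouring genes from GENCODE M21. Alternatives were other pseudocounts, filters, scaling and label rules, limma without the trend, edgeR 4.0.16, DESeq2 1.42.0, the replicate number as a block, other length limits and read sets, scaling by the last 2 bases (added after seeing the data) and each library left out. Shares and figures were made in Python 3.11.15 with matplotlib 3.10.9, scipy 1.17.1, pandas 2.3.3 and numpy 2.4.6.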

Additional observations from a re-analysis of the deposited data

Results flagged for a closer look

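Reads with no miRNA label but with the first 15 bases of a member's main read were outside the comparisons above and were present in every library above the floor of 3 reads. Their mean level was 14.6 RPM for the start of mmu-miR-219a-5p (30 sequences), 2.54 RPM for mmu-miR-219a-2-3p (11 sequences), 26.9 RPM for mmu-miR-338-3p (47 sequences) and 2.12 RPM for mmu-miR-338-5p (9 sequences), which is 0.325% to 0.525% of the level of the label. They were 17 to 23 nt long, and their second annotation was most often the hairpin of that member. Groups of 3 libraries are too small for the test of a single library that stands apart, so none was run.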

How the results depend on the processing

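With each library left out, the log2 fold changes ranged from -0.44 to 0.43 for mmu-miR-219a-5p, -0.28 to -0.07 for mmu-miR-219a-2-3p, -0.13 to 0.27 for mmu-miR-338-3p and -0.49 to -0.32 for mmu-miR-338-5p. No member was called under any alternative run. mmu-miR-219a-5p was at 0.0052 with median-of-ratios scaling. The labels called, 23 in the main test, numbered 2 with a mean of at least 100 RPM, 3 without a filter, 15 from reads of 1 label or without the trend, 14 with median-of-ratios scaling or edgeR, 46 with DESeq2 (15 higher at 18M) and 0 to 15 with a library left out. The member reads called, 1 in the main test, were 0 with median-of-ratios scaling, edgeR or any library left out (range 0 to 0). Of all reads tested, 12 of 3281 were called in the main test, 10 of 3279 with median-of-ratios scaling and 9 of 3281 with edgeR. With a library left out 0 of all reads tested were called. At a mean of at least 100 RPM 0 of 757 reads were called, and the 19-nt read of mmu-miR-338-3p (mean 16.5 RPM) was not tested. DESeq2 called 151 of 3281 reads, 4 of them member reads. These were the 19-nt and 20-nt reads of mmu-miR-338-3p and the 23-nt reads of mmu-miR-219a-5p and mmu-miR-338-5p. At a mean of at least 1 RPM 20 of 16220 reads were called. The count of member reads was again 1, but the read was an 18-nt form of mmu-miR-338-3p. With the replicate number as a block (replicate block) 1 label and 0 of 3281 reads were called, and hence 0 member reads. Libraries with the same number did not deviate together (correlations -0.17, -0.22 and -0.10), so the numbers were not taken as pairs.

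The sign of a difference in shares turned with a library left out for the arm share of mmu-miR-219a-5p (-2.24 to 5.66 points), departing ends of mmu-miR-219a-2-3p (-0.497 to 0.00924), shifted ends of mmu-miR-338-3p (-0.218 to 0.310, and 0.0386 from sequences of at least 1 RPM), longer reads of mmu-miR-338-5p (-1.99 to 0.690) and its shifted ends (-0.372 to 2.64). The causes were not tested. In the shorter and longer reads of the other 3 members and the shorter reads of mmu-miR-338-5p the direction was kept under every alternative run, but with limits of 20 and 24 nt the differences of mmu-miR-219a-5p were 0.696 (shorter) and -0.311 points (longer), and those of the longer reads of mmu-miR-219a-2-3p and mmu-miR-338-3p were -0.194 and -0.0366 points. For mmu-miR-338-3p the longer reads differed by -1.28 points without 2M replicate 3 (-1.99 with it). The limits leave out the 21- and 23-nt forms. The exact permutation test of a share cannot go below 0.1 with 3 libraries per age.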
